A study of Mus musculus with 6 samples.

Results

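Haematopoietic stem cells (HSCs) stay in the bone marrow, and find it again after transplantation, through integrins and other adhesion and homing receptors, and the RNA of 39 named genes of this kind was examined here in HSCs of mice given ferulic acid. The list was set by gene symbol and comprised 13 integrin α genes, 6 integrin β genes, 6 homing receptors, 9 other surface adhesion genes and 5 cytoplasmic effectors. Of the 39 genes, 38 were among the 27198 genes of the deposited table, and Itgb8 was not analysed here. Of these 38, 36 passed the low-count filter and were tested among 16520 genes, while Itga7 and Itgae did not pass it. Itga7 had between 0 and 2 reads in each library, and Itgae had 10, 8 and 8 in the Ctrl libraries and 2, 1 and 2 in the l-FA libraries.

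The libraries came from male wild-type C57BL/6 mice aged 8 to 10 weeks, none of them irradiated. The l-FA group received ferulic acid, a plant phenolic acid, at 50 mg/kg into the peritoneum each day for 30 days, and the Ctrl group received vehicle. HSCs were sorted from bone marrow as Lineage-, Sca-1+, c-Kit+, Flk2- and CD34- cells, their RNA was amplified by a SMART-Seq method, and 3 libraries were sequenced for each group. The sources used here do not give the number of mice behind a library, so n counts libraries and the p-values measure the spread between these libraries, which may be technical. Each library held between 19287735 and 20380610 counted reads, and the 38 genes took 0.586 to 0.589% of them in Ctrl and 0.638 to 0.640% in l-FA.

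An integrin is a pair of one α and one β chain, and the pair decides what the cell can hold on to. On HSCs, α4β1 binds the cell surface protein VCAM1 and fibronectin, α5β1 binds fibronectin, α6β1 binds laminin, and the αL, αM and αX chains pair with β2 to bind ICAMs and complement fragments. Talin and kindlin bind the β tail inside the cell and switch the pair on, Rac and Cdc42 GTPases then remodel the actin skeleton, and chemokine and lipid receptors such as CXCR4 and S1P1 set the direction of travel.

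The RNA did not match the sort on every marker. The HSC markers Kit, at 80.0 ± 0.988 FPKM in Ctrl (SD over 3 libraries), Procr, at 8.47 ± 0.222, and Hlf, at 9.81 ± 0.276, were present, whereas Slamf1, another HSC marker, was at 0.326 ± 0.0845. In l-FA Slamf1 was at 1.28 ± 0.0840 FPKM, higher by a log2 fold change of 1.90 ± 0.19 (SE, edgeR adjusted p = 0.000338). Kit and Procr were higher by less (0.12 ± 0.019 and 0.30 ± 0.044 SE), and Hlf was lower (-0.31 ± 0.047 SE). FPKM is read number relative to transcript length and library size, so that levels can be set beside each other between genes. The RNAs of CD34 and Flk2, both sorted against, were abundant, Cd34 at 133 ± 1.13 and Flt3, which encodes Flk2, at 119.5 ± 0.144 FPKM in Ctrl. Both were higher in l-FA by a log2 fold change of 0.23 ± 0.022 and 0.64 ± 0.018 (SE, edgeR adjusted p = 0.000286 and 3.95e-06). The Lineage gate also removed cells by Mac-1, Gr-1, B220 and other proteins. In Ctrl, Itgam, which encodes a chain of Mac-1, was at 6.04 ± 0.520 FPKM. Ptprc, which encodes CD45 and its B220 form, was at 11.1 ± 1.22, and Cd3e and Ly6g were at 0.0146 and 0.223 FPKM. Mpo, a granule enzyme of the neutrophil and monocyte lineage, reached 3743 ± 83.8 FPKM in Ctrl. All values below are bulk measurements of this sorted population, in which fewer cells of a type and less RNA per cell cannot be told apart.

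In l-FA, 16 of the 36 tested genes were higher and 8 were lower at an adjusted p under 0.05, so that 24 (66.7%) passed. Of all 16520 genes tested, 50.5% passed, 25.5% higher and 25.0% lower. A stricter rule, that of the study's methods, also asks for a fold limit. Above a 2-fold change, 8 of the 36 genes (22.2%) were left, 5 higher and 3 lower. The share of all tested genes past both limits was 11.8%, 6.68% higher and 5.1% lower. The median log2 fold change was 0.08 over the 36 genes and 0.0035 over all genes, and the median size without sign was 0.36 and 0.29. Low-count genes reached 2-fold more often, and among genes with a mean of at least 100 scaled counts, 19 of 29 listed genes (65.5%) passed against 54.6% of 11421 genes, and 4 of the 29 (13.8%), 2 in each direction, also passed 2-fold against 3.91%, 1.86% higher and 2.06% lower. The 3 libraries of one group lay wholly above or below those of the other for 72.2% of the listed genes (26 of 36) and 60.3% of all those tested, and among the better counted genes for 21 of 29 (72.4%) and 64.4%.

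**Figure D1:**
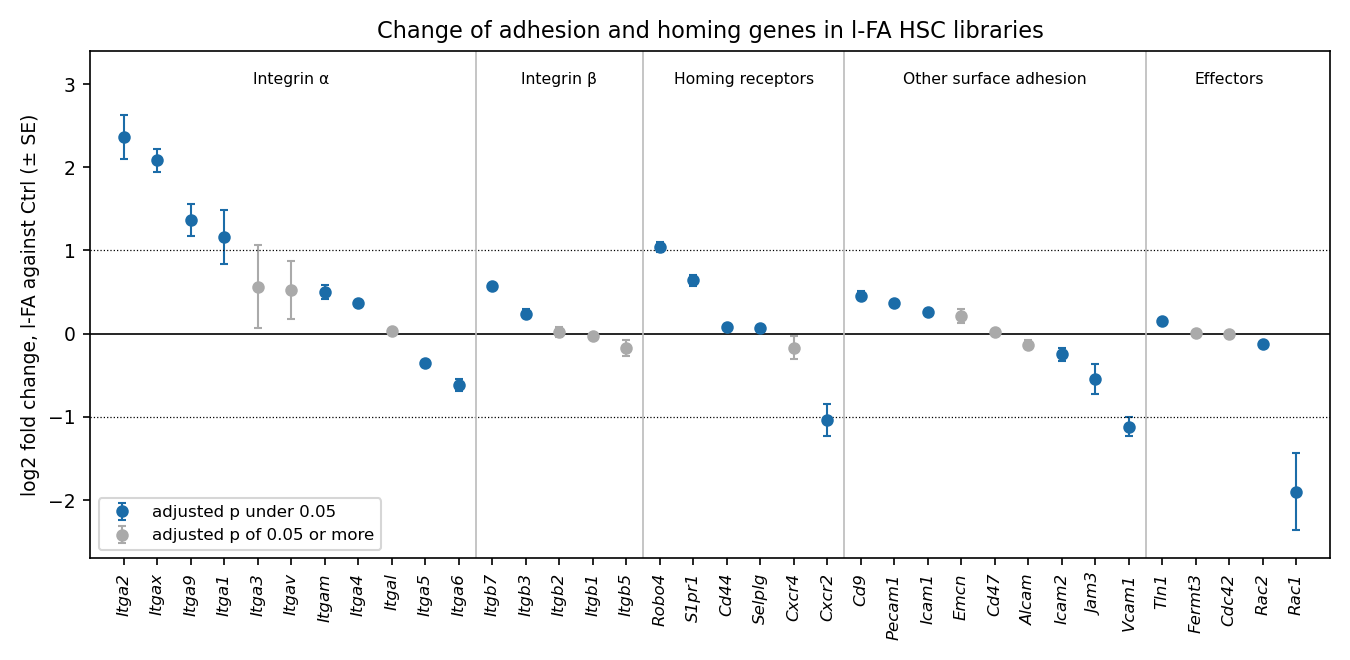
Log2 fold change of each of the 36 tested genes in l-FA against Ctrl (y axis, log2 scale), grouped by role and ordered by change. Points are edgeR estimates from 3 libraries a group with bars for ± SE, blue where the adjusted p was under 0.05, and dotted lines mark a 2-fold change. Itga2 (2.36) and Itgax (2.09) lie highest and Rac1 (-1.90) lowest.

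Levels spanned several orders of magnitude. Per length, Cdc42 stood highest in Ctrl with 263 ± 1.39 FPKM, followed by Rac2 (190.1 ± 3.63), Cd47 (85.1 ± 1.79), Fermt3 (83.8 ± 1.49), Selplg (79.0 ± 0.976), Tln1 (74.4 ± 0.890) and Itgb1 (68.9 ± 0.839). In the Ctrl libraries the ranges of the neighbours Cd47 and Fermt3 overlapped, and over the whole order 12 of 37 neighbouring pairs overlapped in Ctrl and 16 of 37 in l-FA. The abundant α chains were Itgal (18.1 ± 0.393), Itga5 (14.4 ± 0.279), Itgam (6.04 ± 0.520) and Itga4 (5.40 ± 0.200 FPKM). At the low end, Itga1, Itga3, Itgae and Itga7 had mean levels under 0.1 FPKM in Ctrl.

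**Figure D2:**
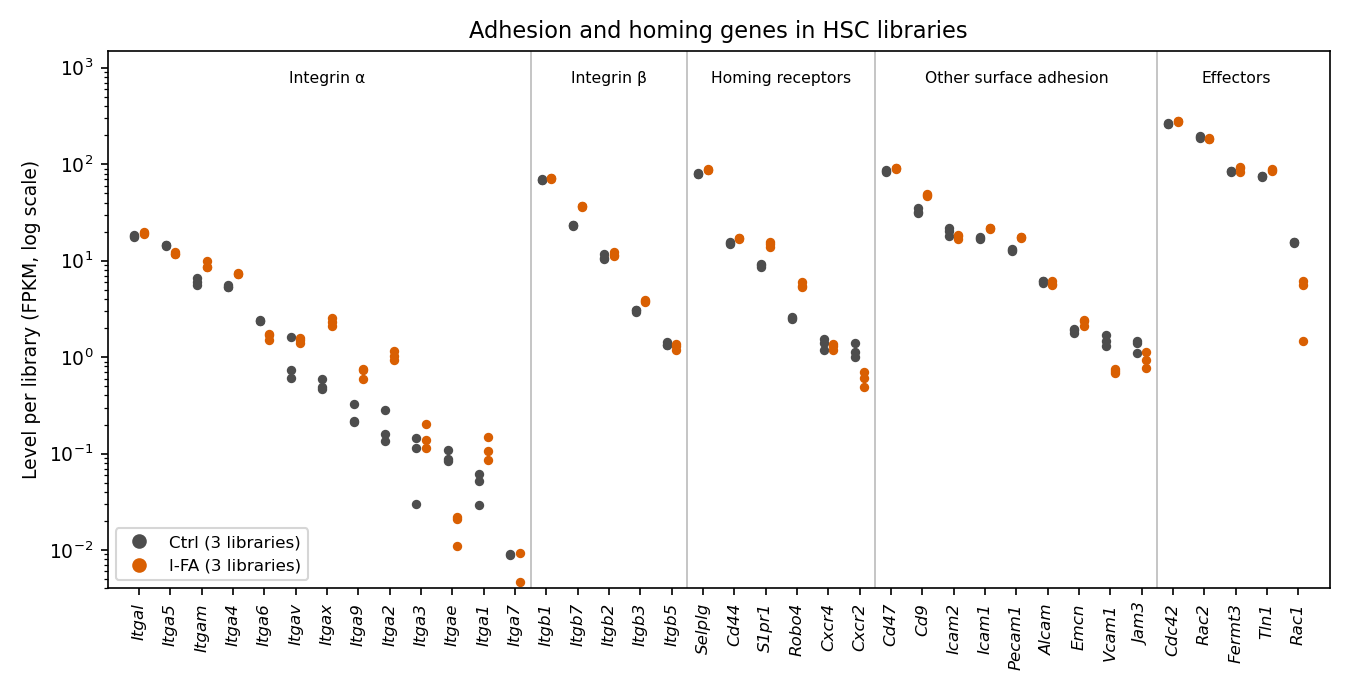
Level of each of the 38 listed genes in FPKM (y axis, log scale), grouped by role and ordered within a role by the Ctrl mean. Each point is 1 library, grey for Ctrl and orange for l-FA, and a library at 0 (Itga7 only) is not drawn. Levels run from Cdc42 at the top to Itga7 at the bottom, and the groups stand clearly apart for Itgax, Itga2, Itga9, Robo4, Vcam1 and Rac1.

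Among the α integrins, 4 low-level genes were more than 2-fold higher in l-FA. Values below are CPM, counts relative to a library size scaled by the trimmed mean of M-values (TMM), and changes are log2 fold changes of l-FA against Ctrl. Itga2 (ENSMUSG00000015533, chr13:114969617-115068636, GRCm39), the collagen-binding α2 chain best known from platelets, had CPM values of 0.99, 2.09 and 1.15 in the Ctrl libraries and 6.52, 8.03 and 7.21 in the l-FA libraries. Its lowest l-FA library was above its highest Ctrl library, and the log2 fold change was 2.36 ± 0.27 (SE, adjusted p = 0.000547). Itga1 (ENSMUSG00000042284, chr13:115089632-115238500), the neighbouring gene 21.0 kb away and a second collagen-binding chain, rested on few reads, with counts of 12, 25 and 22 in the Ctrl libraries and 63, 35 and 43 in the l-FA libraries. The groups did not overlap, with a log2 fold change of 1.17 ± 0.32 (SE, adjusted p = 0.0229). That call was lost without Ctrl 1, Ctrl 3 or l-FA 1, with a log2 fold change of 0.91, 1.22 and 0.94 and an adjusted p of 0.0539, 0.0556 and 0.065. Itga1 also shares its locus with Pelo, which was lower in l-FA by a log2 fold change of -0.53, and it is not known whether the counting used strand.

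Itgax (ENSMUSG00000030789, chr7:127728719-127749829), the αX chain CD11c of dendritic cells and macrophages, had CPM values of 2.66, 3.27 and 2.56 in the Ctrl libraries and 10.8, 11.9 and 13.3 in the l-FA libraries. All 3 l-FA libraries were at more than 3 times the highest Ctrl library, with a log2 fold change of 2.09 ± 0.14 (SE, adjusted p = 7.21e-05). Its neighbour Itgam, 11.1 kb away, encodes the αM chain CD11b of Mac-1, which the Lineage gate sorted against. Itgam had CPM values of 44.6, 41.3 and 48.5 in the Ctrl libraries and 60.6, 60.3 and 69.8 in the l-FA libraries. The groups were again apart and the log2 fold change was 0.50 ± 0.083 (SE, adjusted p = 0.00266). Itgal, the αL chain of LFA-1 further along the same chromosome, had CPM values of 168, 166 and 171 in the Ctrl libraries and 175, 172 and 167 in the l-FA libraries. These ranges overlapped, with a log2 fold change of 0.03 ± 0.029 (SE; 95% interval -0.03 to 0.09, adjusted p = 0.472). Itga9 (ENSMUSG00000039115, chr9:118435758-118730071), the α9 chain, which binds tenascin and osteopontin, had CPM values of 2.81, 1.88 and 1.91 in the Ctrl libraries and 6.0, 6.18 and 4.86 in the l-FA libraries. No l-FA library was as low as a Ctrl library, and the log2 fold change was 1.37 ± 0.20 (SE, adjusted p = 0.00147).

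**Figure D3:**
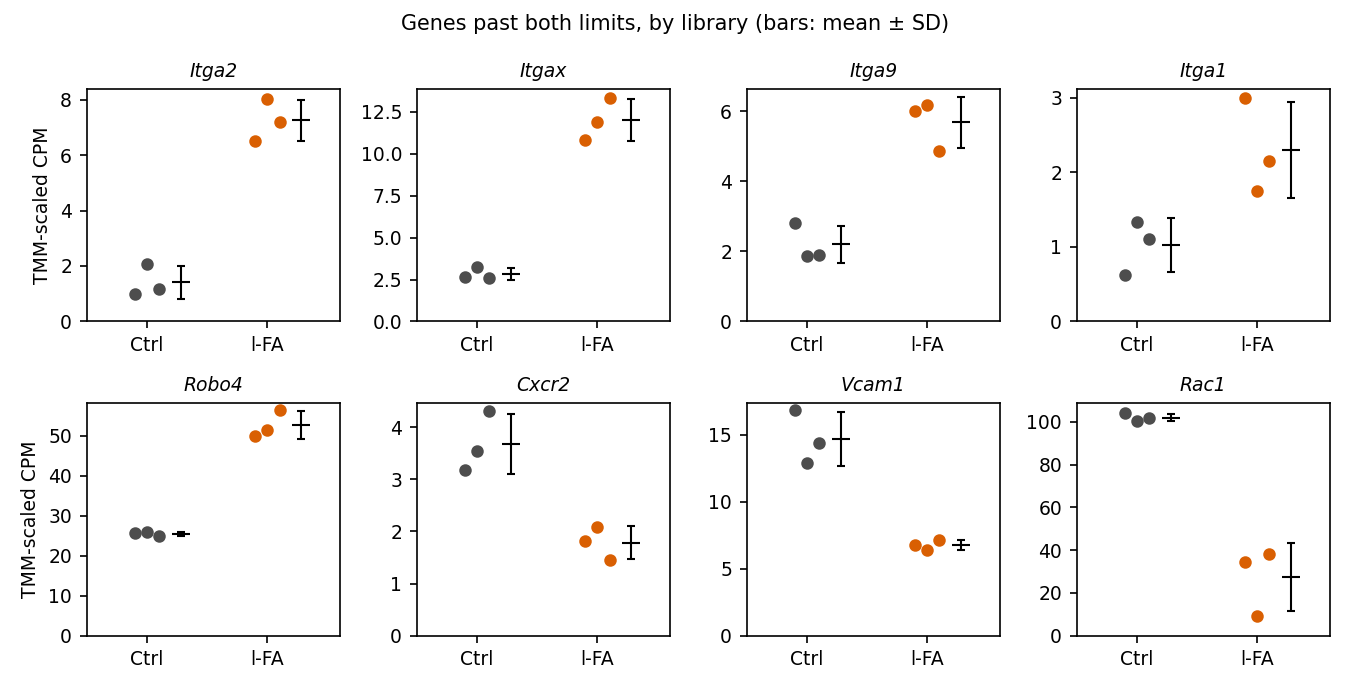
TMM-scaled CPM (y axis, linear from 0, own scale per panel) of the 8 genes past both limits, the adjusted p and the 2-fold change. Points are libraries, 3 for Ctrl in grey and 3 for l-FA in orange, and black bars are the mean ± SD. The groups do not overlap in any panel, and Rac1 has 1 l-FA library (9.27) far below the other two.

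The α chains that HSCs are known to use for fibronectin, VCAM1 and laminin moved in both directions and by less than 2-fold. Itga4, the α chain of the VCAM1 receptor VLA-4, had CPM values of 84.8, 90.8 and 84.4 in the Ctrl libraries and 114, 110 and 112 in the l-FA libraries. It was higher in all 3 l-FA libraries, with a log2 fold change of 0.37 ± 0.040 (SE, adjusted p = 0.000457). Itga5, the fibronectin-binding chain of VLA-5, had CPM values of 85.7, 87.5 and 83.3 in the Ctrl libraries and 65.8, 65.6 and 68.8 in the l-FA libraries and was lower in all 3, with a log2 fold change of -0.36 ± 0.038 (SE, adjusted p = 0.000444). Itga6, the laminin-binding chain, had CPM values of 31.5, 32.0 and 30.9 in the Ctrl libraries and 21.6, 18.8 and 21.3 in the l-FA libraries. The l-FA libraries were all below the Ctrl libraries, with a log2 fold change of -0.62 ± 0.070 (SE, adjusted p = 0.000558). Itgav, the vitronectin and osteopontin-binding chain, had CPM values of 10.5, 22.9 and 8.48 in the Ctrl libraries and 20.9, 18.9 and 20.3 in the l-FA libraries and did not pass (0.53 ± 0.35 SE, adjusted p = 0.259). Ctrl 2 stood more than 2-fold above both other Ctrl libraries and above all 3 l-FA libraries, and without it the log2 fold change was 1.08 (adjusted p = 0.00167). Itga3, a laminin-binding chain with under 1.5 CPM in every library, did not pass (0.56 ± 0.50 SE, adjusted p = 0.388).

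Read per length, the α chains that can pair with β1 took different shares of their sum in the 2 groups. Over the 9 listed α chains known to pair with β1, a grouping chosen after the values were seen, the summed level was 23.8 ± 1.09 FPKM in Ctrl against 24.4 ± 0.350 FPKM in l-FA (SD, n = 3). FPKM are scaled by total counts and not by TMM, whose factors differed between the groups. The sums carry that difference, while shares within a library do not. Itga5 was 61.7, 58.6 and 61.4% of the summed level in the Ctrl libraries and 47.9, 48.6 and 49.6% in the l-FA libraries. Itga4 was 22.6, 22.5 and 23.1% in Ctrl and 30.7, 30.1 and 29.9% in l-FA. The shares of Itga5 were thus lower and those of Itga4 higher in every l-FA library than in any Ctrl library. Itga6 went from 10.1 ± 0.331% to 6.77 ± 0.438%, Itga2 from 0.799 ± 0.294% to 4.28 ± 0.486%, and Itga9 from 1.07 ± 0.278% to 2.83 ± 0.390%. These are shares of RNA and say nothing of assembled receptors, and a permutation of 3 against 3 libraries cannot give a p under 0.1.

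**Figure D4:**
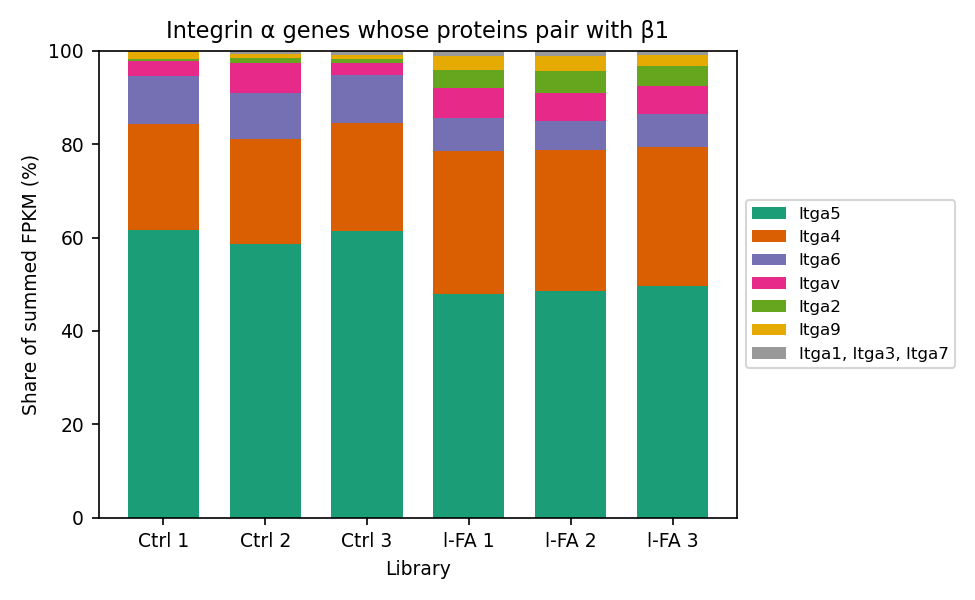
Share (%) of the summed FPKM of the 9 integrin α genes whose proteins pair with β1, for each of the 3 Ctrl and 3 l-FA libraries. Each colour is 1 gene, with Itga1, Itga3 and Itga7 drawn together. Itga5 takes 58.6 to 61.7% in Ctrl and 47.9 to 49.6% in l-FA, and Itga4 takes 22.5 to 23.1% and 29.9 to 30.7%.

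Of the 5 tested β chains, Itgb7 and Itgb3 (40.0%, against 50.5% of all genes tested) were higher in l-FA and the others did not pass. Itgb1, the common partner of the chains above, had CPM values of 404, 406 and 393 in the Ctrl libraries and 389.7, 394 and 399 in the l-FA libraries. Its ranges overlapped, and the log2 fold change of -0.02 ± 0.022 (SE; 95% interval -0.07 to 0.02, adjusted p = 0.404) became 0.05 when libraries were scaled by total count alone. Itgb7, the alternative partner of α4 in the gut-homing receptor α4β7, rose from 23.2 ± 0.290 to 36.4 ± 0.166 FPKM, with a log2 fold change in counts of 0.57 ± 0.028 (SE, adjusted p = 2.72e-05). The ratio of Itgb7 to Itgb1 in FPKM was 0.336 ± 0.00603 in Ctrl against 0.508 ± 0.00644 in l-FA (SD, n = 3). Itgb2, the partner of αL, αM and αX, had CPM values of 50.4, 51.2 and 55.5 in the Ctrl libraries and 50.4, 52.4 and 56.0 in the l-FA libraries. These values overlapped almost wholly (0.02 ± 0.059, SE; 95% interval -0.10 to 0.13, adjusted p = 0.838). Itgb3, which pairs with αV and with the platelet chain αIIb, had CPM values of 27.7, 26.3 and 27.4 in the Ctrl libraries and 30.9, 32.3 and 32.9 in the l-FA libraries. The l-FA libraries were all higher, with a log2 fold change of 0.24 ± 0.052 (SE, adjusted p = 0.00867). Itgb5, another partner of αV, had a log2 fold change of -0.17 and did not pass (adjusted p = 0.166).

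Of the 6 homing receptors, 4 were higher and 1 lower in l-FA, 83.3% in all against 50.5% of all genes tested. Robo4 (ENSMUSG00000032125, chr9:37313193-37326411), a Slit receptor of HSCs and endothelium that takes part in HSC lodging in the marrow, had CPM values of 25.6, 25.9 and 24.9 in the Ctrl libraries and 49.9, 51.4 and 56.5 in the l-FA libraries. Each l-FA library stood well above every Ctrl library, and the log2 fold change was 1.05 ± 0.060 (SE, adjusted p = 4.58e-05). S1pr1, the receptor through which cells leave tissue towards sphingosine 1-phosphate, was higher in l-FA, with a log2 fold change of 0.64 ± 0.063 (SE, adjusted p = 0.000322). Cxcr2 (ENSMUSG00000026180, chr1:74193150-74200405), the neutrophil chemokine receptor, had counts of 61, 66 and 86 in the Ctrl libraries and 38, 42 and 29 in the l-FA libraries. The l-FA counts all lay below the Ctrl counts, with a log2 fold change of -1.04 ± 0.19 (SE, adjusted p = 0.00428). Its fold change stood at the 2-fold limit, with a log2 value of -0.91 without Ctrl 3, -0.90 without l-FA 3 and -0.96 under total count scaling, all with an adjusted p under 0.05.

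Cxcr4, the receptor for the niche chemokine CXCL12 and the best known HSC homing receptor, was low in both groups, at 1.37 ± 0.179 and 1.29 ± 0.0825 FPKM. Its counts were 75, 80 and 65 in the Ctrl libraries and 66, 72 and 69 in the l-FA libraries. They overlapped, and the log2 fold change of -0.17 ± 0.14 (SE) had a 95% interval of -0.44 to 0.11 (adjusted p = 0.362). Selplg, which encodes the selectin ligand PSGL-1, had CPM values of 463, 474 and 459 in the Ctrl libraries and 481, 494 and 490.4 in the l-FA libraries, and Cd44, a hyaluronan receptor, had CPM values of 191, 197 and 198 in the Ctrl libraries and 202, 208 and 212 in the l-FA libraries. For both genes the groups were apart by little, with log2 fold changes of 0.07 ± 0.022 (SE, adjusted p = 0.0375) and 0.08 ± 0.028 (SE, adjusted p = 0.0463). Both calls were lost without Ctrl 1, without Ctrl 3, without l-FA 2, without l-FA 3, with the replicate numbers as a block and with no low-count filter. The Cd44 call was also lost without Ctrl 2, and the Selplg call under RLE scaling.

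Promoters of 3 of the genes past both limits are shown because they hold at least one of the searched motifs. They cover the 250 bases before the transcription start in RefSeq (GRCm38.p6, so these positions differ from the GRCm39 loci above), 5′ to 3′ along the gene's strand, with motif matches in capitals. In Itgax, AGATAA is a GATA-type match and TGAGTCA an AP-1-type match, and in Cxcr2 and Robo4 the capitals mark GAGGAA, a PU.1-type ETS match, on the reverse strand.
Itgax (chr7:128129300-128129549, + strand): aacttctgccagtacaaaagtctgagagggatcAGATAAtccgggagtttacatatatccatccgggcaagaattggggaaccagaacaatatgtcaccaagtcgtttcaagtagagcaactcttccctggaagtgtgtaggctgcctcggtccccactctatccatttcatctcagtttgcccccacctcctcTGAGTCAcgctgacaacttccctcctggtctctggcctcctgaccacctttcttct
Cxcr2 (chr1:74153744-74153993, + strand): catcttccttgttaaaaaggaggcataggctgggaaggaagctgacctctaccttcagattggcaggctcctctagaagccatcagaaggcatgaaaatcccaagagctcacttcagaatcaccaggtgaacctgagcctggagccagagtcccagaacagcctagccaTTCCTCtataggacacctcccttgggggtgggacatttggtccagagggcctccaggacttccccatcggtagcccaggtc
Robo4 (chr9:37401722-37401971, + strand): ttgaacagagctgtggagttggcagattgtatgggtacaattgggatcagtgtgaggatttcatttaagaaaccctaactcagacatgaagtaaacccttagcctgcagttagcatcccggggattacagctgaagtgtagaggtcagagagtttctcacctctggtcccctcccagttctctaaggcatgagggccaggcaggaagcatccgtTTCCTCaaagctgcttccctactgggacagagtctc

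RefSeq promoters were matched for 24 of the 38 listed genes, 26 promoters in all, and searched on both strands for 6 motifs. Both Cd47 windows, which start at bases 49855404 and 49855411 of chromosome 16, nearly coincide and have the same number of ETS and GC box matches. They are counted separately in the shares below. Some windows lay far from the gene start, the furthest being that of Itga9 at 104983 bases. GAGGAA was in 11 of the 26 promoters (42.3%) and in 23.3% of all 32851 promoters of the same length. The GC box GGGCGG was in 53.8% against 32.7%, the ETS motif CCGGAA in 19.2% against 12.0%, the GATA motif AGATAA in 7.69% against 9.99%, the AP-1 motif TGANTCA in 3.85% against 6.75%, and the RUNX motif TGTGGT in 11.5% against 14%. No searched motif contains another, and both ETS forms share the letters GGAA. These matches describe the letters in the windows.

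Among the 9 other surface adhesion genes, 3 were higher, 3 were lower and 3 did not pass. The share passing was 66.7%, against 50.5% of all genes tested. Vcam1 (ENSMUSG00000027962, chr3:115903598-115923337), the ligand of VLA-4, lies 395 kb from S1pr1 and had CPM values of 16.8, 12.9 and 14.4 in the Ctrl libraries and 6.76, 6.43 and 7.11 in the l-FA libraries. No Ctrl library was as low as an l-FA library, and the log2 fold change was -1.12 ± 0.12 (SE, adjusted p = 0.000429). Icam1 and Icam2, both ligands of LFA-1, changed in opposite directions, with log2 fold changes of 0.26 ± 0.037 (SE, adjusted p = 0.00142) for Icam1 and -0.25 ± 0.076 (SE, adjusted p = 0.0338) for Icam2. The Icam2 call was lost when any library other than Ctrl 2 was left out, and under total count scaling. Icam1 overlaps Gm47079, a lncRNA with a log2 fold change of 0.99. In FPKM the ratio of Icam1 to Icam2 was 0.858 ± 0.103 in Ctrl against 1.22 ± 0.0609 in l-FA (SD, n = 3).

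Cd9, a tetraspanin of HSCs and megakaryocytes, had CPM values of 86.3, 77.1 and 76.9 in the Ctrl libraries and 112, 109.9 and 107 in the l-FA libraries. All l-FA libraries were higher, with a log2 fold change of 0.45 ± 0.053 (SE, adjusted p = 0.00066). Pecam1, the adhesion molecule CD31, was also higher, with a log2 fold change of 0.37 ± 0.030 (SE, adjusted p = 0.000154). Jam3, a junctional adhesion molecule of HSCs, was lower, with a log2 fold change of -0.54 ± 0.18 (SE, adjusted p = 0.0449), a call lost under upper-quartile scaling, under total count scaling, with no low-count filter, and without Ctrl 1, Ctrl 2, l-FA 2 or l-FA 3. Emcn, the sialomucin endomucin of HSCs and endothelium, had CPM values of 13.1, 11.9 and 12.8 in the Ctrl libraries and 15.1, 15.4 and 13.4 in the l-FA libraries. The groups did not overlap, but the gene did not pass (0.21 ± 0.084 SE, adjusted p = 0.0744), other than under total count scaling and without l-FA 3. Cd47, the signal against phagocytosis, and Alcam did not pass, with log2 fold changes of 0.02 ± 0.026 and -0.13 ± 0.054 (SE; adjusted p = 0.63 and 0.0861).

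Inside the cell, Rac1 was lower in l-FA, and Rac2, its far more abundant relative, was lower by a much smaller amount. Rac1 (ENSMUSG00000001847, chr5:143489389-143513791), a GTPase that drives membrane ruffling and HSC engraftment, had CPM values of 104, 100.3 and 102 in the Ctrl libraries and 34.6, 9.27 and 38.2 in the l-FA libraries. The Ctrl libraries were tightly grouped and the l-FA libraries all lay far below them, but l-FA 2 was more than 3-fold below the other two. The log2 fold change was -1.90 ± 0.46 (SE, adjusted p = 0.0134), and without l-FA 2 it was -1.47 ± 0.059 (SE, adjusted p = 0.00011). Rac1 overlaps Daglb, a lipase gene that was lower in l-FA by a log2 fold change of -0.76 ± 0.036 (SE, adjusted p = 2.48e-05), and their part in each other's counts was not tested. Rac2, the GTPase of blood cells, had CPM values of 699, 711 and 721 in the Ctrl libraries and 658, 641 and 651 in the l-FA libraries. All l-FA libraries were lower, with a log2 fold change of -0.13 ± 0.020 (SE, adjusted p = 0.00214), a call lost under total count scaling. In FPKM, Rac2 stood 12.3 ± 0.367 times above Rac1 in Ctrl and 33.5, 121.7 and 29.98 times above it in the l-FA libraries.

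Cdc42, the GTPase of cell polarity, had CPM values of 822, 824 and 809 in the Ctrl libraries and 819, 822 and 799.8 in the l-FA libraries. The values overlapped, and the log2 fold change of -0.01 ± 0.019 (SE; 95% interval -0.04 to 0.03, adjusted p = 0.752) turned to 0.07 (adjusted p = 0.0155) under total count scaling. Tln1, which encodes talin, had CPM values of 861, 885 and 870.2 in the Ctrl libraries and 948, 971 and 982 in the l-FA libraries. Each l-FA library was higher than each Ctrl library, with a log2 fold change of 0.15 ± 0.020 (SE, adjusted p = 0.00121). Fermt3, the kindlin of blood cells, had CPM values of 686, 709 and 704 in the Ctrl libraries and 728, 724 and 661 in the l-FA libraries. The l-FA libraries spanned the Ctrl range, with a log2 fold change of 0.01 ± 0.040 (SE; 95% interval -0.07 to 0.09, adjusted p = 0.863).

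Scaling bears on the small changes above. TMM factors were 0.968 to 0.979 in Ctrl and 1.03 in l-FA, and scaling by total count moved the median log2 fold change of all genes by 0.08. Under it, 25 of the 36 genes passed, 20 higher and 5 lower, against 16 higher and 8 lower with TMM. Replicates of the same group differed beyond the 5% limit of counting error for 5 to 11 of the 36 genes, and libraries of different groups for 26 to 31. For all genes with at least 100 scaled counts these shares were 23.3 to 27.6% and 69.5 to 70.8%. A library stood 2-fold or more from both others of its group for 2 of 29 genes of that depth, Itgav and Rac1, and for 3.29% of all such genes. Of the 38 listed genes, 17 overlap another gene of the table, none of them one of the 38, so their counts may include its reads.

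The other genes of the adhesion machinery were read from 7 lists of 167 genes, of which 161 were in the table and 135 were tested. In l-FA 55 were higher and 31 lower, 63.7% in all against 50.5% of the genes tested, and 15 and 6 of them, 15.6% in all against 11.8%, were past both limits. All 4 tested integrins outside the 39 genes were higher, among them Itga2b, the platelet chain αIIb, with a log2 fold change of 0.47 ± 0.026 (SE, adjusted p = 3.9e-05). Itga8, which binds fibronectin and nephronectin, had counts of 0, 0 and 0 in the Ctrl libraries and 24, 21 and 21 in the l-FA libraries. With a floor of 3 counts per library, it was at least 6.93-fold higher in l-FA. Of 33 tested genes of integrin activation and focal adhesions, 11 were higher and 6 lower (51.5%). The largest changes among well-counted genes were those of the adaptor Crkl (0.63 ± 0.040 SE, edgeR adjusted p = 6.23e-05) and the tensin Tns3 (-0.45 ± 0.10 SE, adjusted p = 0.00892).

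Genes of small GTPases, their regulators and the actin skeleton were split, 7 higher and 9 lower of 27 (59.3%). Of all genes tested, 50.5% passed. Rhoq, a GTPase related to Cdc42, was at 0.54 ± 0.12 (SE, edgeR adjusted p = 0.0107) and the Rac exchange factor Vav2 at -0.61 ± 0.087 (SE, adjusted p = 0.00143). Of 21 tested chemoattractant receptors, 9 were higher and 7 lower (76.2%). Past 2-fold were 10 of the 21 (47.6%), 5 in each direction, against 11.8% of all genes tested. All 10 had a mean under 100 scaled counts, a depth at which genes reached 2-fold more often. The 11.8% covers genes of every depth and is not a share at like depth. Among all genes with at least 100 scaled counts it was 3.91%. Ccr2, the monocyte chemokine receptor, led the well-counted rises (0.68 ± 0.13 SE, adjusted p = 0.00482), and Ptger2, a prostaglandin E2 receptor, the falls (-0.57 ± 0.10 SE, adjusted p = 0.00372). Cysltr1, a leukotriene receptor, had counts of 38, 19 and 43 in the Ctrl libraries and 0, 0 and 0 in the l-FA libraries, at least 11.6-fold lower in l-FA by the same floor. Selectins and the enzymes that build their ligands were higher in 7 and lower in 5 of 16 (75.0%). The sialyltransferase St3gal6 was at 1.04 ± 0.14 (SE, edgeR adjusted p = 0.00112) and Glg1, a ligand of E-selectin, at -0.44 ± 0.048 (SE, adjusted p = 0.000484).

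Further surface adhesion genes were higher in 14 and lower in 4 of 29. These 62.1% stand beside 50.5% of all genes tested, 25.5% higher and 25.0% lower. Esam, an adhesion molecule of HSCs and endothelium, was at CPM values of 34.5 ± 1.39 in Ctrl against 67.8 ± 1.69 in l-FA (SD, n = 3) with a log2 fold change of 0.97 ± 0.047 (SE, adjusted p = 2.49e-05). Ncam1, the neural cell adhesion molecule, was at CPM values of 8.62 ± 0.891 in Ctrl against 2.42 ± 0.515 in l-FA (SD), with a log2 fold change of -1.83 ± 0.17 (SE, adjusted p = 0.000269). Of 5 tested niche ligands, 3 (60.0%) were higher and none lower, among them Angpt1, the ligand of the receptor Tie2 (0.37 ± 0.025 SE, edgeR adjusted p = 7.56e-05).

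Markers of other cells moved with the groups, and their part in the values above was not tested. Of 13 neutrophil and monocyte markers, 11 were lower and 2 higher in l-FA, and their summed level was 23310 to 24160 CPM in Ctrl and 6157 to 6474 CPM in l-FA. Most of that sum was Mpo, at 18540 ± 505 CPM in Ctrl and 4938 ± 167 CPM in l-FA (SD). Elane was at 3211 ± 28.7 CPM and 454.5 ± 5.21 CPM. The 2 higher markers were Lyz2 and Csf1r, with log2 fold changes of 0.30 ± 0.022 and 0.10 ± 0.031 (SE). No marker in these lists was at 0 in every library. Cxcr2 moved in the same direction as most of the neutrophil and monocyte markers, whereas Itgam and Itgax moved in the opposite one, as Lyz2 and Csf1r did. Of 9 megakaryocyte and platelet markers, which include Itga2b, 5 (55.6%) were higher and none lower, where 50.5% of all genes tested passed, 25.5% higher. Pf4, Gp1bb, Ppbp and Treml1 did not pass. The sums were 210.0 to 218 CPM in Ctrl and 303 to 314 CPM in l-FA, most of it Itga2b (173 ± 3.55 and 239.9 ± 2.51 CPM, SD). Itga2, Itgb3 and Cd9 moved the same way as the 5 higher markers. Of 8 macrophage markers, which include Vcam1, 1 was higher and 3 lower, and without Vcam1 the sums were 48.6 to 49.7 CPM in Ctrl and 45.2 to 48.2 CPM in l-FA. Most of that sum was Cd68, at 33.7 ± 0.815 CPM in Ctrl and 31.0 ± 1.09 CPM in l-FA (SD), which did not pass. Besides Vcam1, Adgre1 and Mrc1 were lower, with log2 fold changes of -3.08 ± 0.39 and -0.94 ± 0.25 (SE), and C1qb was higher (1.21 ± 0.18 SE).

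Endothelial markers, whose cells also express Robo4, Esam, Pecam1 and Emcn, were low, with summed levels of 12.0 to 13.2 CPM in Ctrl and 11.9 to 13.1 CPM in l-FA over 9 genes, 1 higher and 1 lower of 5 tested. The like sums covered opposite changes. Kdr was higher, with a log2 fold change of 0.78 ± 0.19 (SE, edgeR adjusted p = 0.0141). Flt4 was lower, with counts of 42, 37 and 52 in the Ctrl libraries and 0, 0 and 1 in the l-FA libraries. Plvap, the largest part of the sum, was at 5.48 ± 0.766 CPM in Ctrl and 5.78 ± 0.214 CPM in l-FA (SD). The defining marker Cdh5 had counts of 3, 3 and 3 in the Ctrl libraries and 6, 5 and 9 in the l-FA libraries. Of 12 HSC markers, 9 were higher and 1 lower (83.3%, against 50.5% of all genes tested). Their sums were 1614 to 1655 CPM in Ctrl and 1857 to 1879 CPM in l-FA. The remaining lists counted 1 higher and none lower of 4 tested stromal markers, 1 and 0 of 3 B cell markers, 0 and 2 of 2 T and NK cell markers, and 2 and 1 of 8 erythroid markers. A further list held 5 genes, Cd34, Flt3, Cd3e, Ly6g and Ptprc. Of its 3 tested genes Cd34 and Flt3 were higher and none lower. Ptprc, which encodes CD45 and its B220 form of the Lineage gate, did not pass (edgeR adjusted p = 0.368). Kit and Ly6a, which encode the gated c-Kit and Sca-1, are among the HSC markers and were higher. Their log2 fold changes were 0.12 ± 0.019 and 0.77 ± 0.17 (SE, edgeR adjusted p = 0.00238 and 0.00887). Itgam, of the Lineage gate, was also higher, as given above.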

How the data were processed

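RNA of sorted mouse HSCs was sequenced in 6 libraries, 3 Ctrl and 3 l-FA, grouped by the submitters' labels. The authors deposited raw read counts per gene and FPKM values for 27198 genes. The submitters' processing notes name HISAT2, SAMtools 1.3.1, StringTie, edgeR and the build GRCm39, and strand use in counting is not given in the sources used here. The deposited FPKM values were divided by total counts and gene length, and were used here only for levels and ratios. Fold changes came from the counts, with edgeR 4.0.16 in R 4.3.3 (TMM scaling, filterByExpr, quasi-likelihood test) on all 16520 genes that passed the filter, with Benjamini-Hochberg adjustment over all of them. A gene passed at an adjusted p under 0.05, and passed both limits with a fold change above 2 as well. The 95% intervals are ± 1.96 SE. The script was tested on simulated data. DESeq2 1.42.0 served as an alternative, with other scalings, filters, a replicate block and each library left out. Per-library totals of 19287735 to 20380610 reads set the counting error.

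The 39 genes and all lists were chosen with earlier results of these data known. Values in every library are given for genes past both limits and for a fixed set of well-known HSC adhesion genes; other genes are given by fold change or range. In each list of further genes, the largest rise and fall among genes that passed with a mean of at least 100 scaled counts is named; Itga8, Cysltr1, the subunit shares and the promoters were chosen after their values were seen.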

Additional observations from a re-analysis of the deposited data

How the results depend on the processing

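The number of the 36 genes passing was 19 to 25 over 13 alternatives, that past both limits 6 to 9, and that of companion adhesion genes passing 73 to 87. With 1 library left out these were 19 to 23, 6 to 9 and 78 to 84. DESeq2 gave the same 24 genes. Scaling by total count lost Icam2, Jam3 and Rac2 and gained Cd47, Cdc42, Emcn and Itgal, and omitting the low-count filter lost Cd44, Jam3 and Selplg and gained Itgae. Libraries of the same replicate number showed no shared deviation from their group means, with correlations of 0.019, -0.014 and -0.043. Such values cannot show whether these libraries were prepared together. The replicate block left 20 genes passing, 7 past both limits and 79 companion genes, losing Cd44, Icam2, Itga1 and Selplg.

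Signs turned for 5 genes that had not passed. Itgb1 was at 0.0545 under total count scaling. With single libraries left out, Itgb2 ran from -0.0137 to 0.0642 (-0.0125 and -0.0011 without Ctrl 1 and Ctrl 2, the lowest value without l-FA 3), Cd47 from -0.004 to 0.0477 (the lowest without Ctrl 3), Fermt3 from -0.0069 to 0.0656 (-0.0013 without l-FA 1, the lowest without Ctrl 1), and Cdc42 from -0.0224 to 0.0167 (0.0009 without l-FA 1, the highest without l-FA 3). Cdc42 was at 0.0161 under upper-quartile and 0.0707 under total count scaling. The causes were not tested. The widest SEs of the log2 fold change were those of Itga3 (0.50), Rac1 (0.46), Itgav (0.35) and Itga1 (0.32).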

Other observations

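Several less counted genes of the further adhesion lists, named here after their values were seen, were past both limits. Itgb4, the β4 chain that pairs with α6 in laminin receptors of epithelia, had counts of 12, 9 and 8 in the Ctrl libraries and 118, 113 and 110 in the l-FA libraries. Every l-FA count of Itgb4 was far above every Ctrl count, with a log2 fold change of 3.46 ± 0.17 (SE, edgeR adjusted p = 2.67e-05), while Itga6, its partner, was lower in l-FA. Itgb6, a partner of αV, had counts of 20, 18 and 38 against 61, 84 and 69, a log2 fold change of 1.42 ± 0.29 (SE, adjusted p = 0.00661).

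Among chemoattractant receptors, the inflammatory chemokine receptors Ccr3 (log2 fold change -1.70), Cxcr6 (-1.61) and Cx3cr1 (-1.05) were lower in l-FA, next to Cysltr1. Higher were C3ar1, the receptor of the complement fragment C3a, Cxcr1 (2.12), Cxcr3 (2.03), Gpr183 (1.21), an oxysterol receptor, and Ccr9 (1.03), which guides cells to the gut. C3ar1 had counts of 1, 0 and 0 in the Ctrl libraries and 21, 22 and 17 in the l-FA libraries, and no fold is given against so few reads. The groups did not overlap for any of these genes, which is no separate finding, since the genes were named for being past both limits. Of all genes tested, 60.3% did not overlap. All the receptors named here were under 100 counts in every library.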
